A study of Mus musculus with 6 samples.

Results

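The Bcl2 family of apoptosis regulators was examined in irradiated mouse bone through 10 genes chosen by name: Bcl2, Bcl2l1, Mcl1, Bax, Bak1, Bcl2l11, Bbc3, Pmaip1, Bid and Bad. All 10 were found among the 43346 rows of the gene count table, and all 10 passed the filter on low counts that left 18757 genes. The RNA came from the distal metaphysis of the femur, the marrow-rich flare of the shaft beside the growth plate, of C57BL/6 mice aged 4 months. In the radiated group (n = 3 libraries) the right femur had received 1 image-guided dose of 24 Gy (the gray is the unit of absorbed radiation) at 6.6 Gy per minute over 5 mm of its distal metaphysis. In the non-radiated group (n = 3 libraries) the left femur, the opposite leg, had received no beam. The bone was taken on day 21, ahead of the bone loss that the study saw at day 28, so the comparison asks how transcripts differed before that loss. No transgene or deletion is named for either group. The control is the other leg of irradiated animals and not the femur of an untreated mouse.

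Proteins of this family decide at the outer mitochondrial membrane whether a cell goes into apoptosis. Bax and Bak1 are the effectors that form pores and release cytochrome c, the guardians Bcl2, Bcl2l1 (Bcl-xL) and Mcl1 hold them in check, and the BH3-only proteins, among them Bcl2l11 (Bim), Bbc3 (Puma), Pmaip1 (Noxa), Bid and Bad, sense stress and bind the guardians or activate the effectors. Ionizing radiation activates the transcription factor p53, and Bax, Bbc3 and Pmaip1 are textbook p53 target genes. In marrow, Bcl2l1 is known as a survival factor of platelets and red cell precursors, Mcl1 of stem cells and neutrophils, and Bcl2 of lymphocytes.

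None of the 10 members passed the test between radiated and non-radiated femur. In edgeR's quasi-likelihood test 0 of 10 had a Benjamini-Hochberg adjusted p under 0.05, against 7.8% of all genes tested (1463 of 18757), of which 4.56% were higher and 3.24% lower. At an unadjusted p under 0.05 the count was 1 of 10, the effector Bax, against 21.5% of all genes. limma-voom also called 0 of 10, against 7.29% of all genes, and 1 at an unadjusted p under 0.05, against 20.7%. edgeR with the replicate number as a block called 0 of 10, against 8.9%, and 1 at an unadjusted p under 0.05, against 21.3%. DESeq2's Wald test called 1 of 10, Bax, against 10.4% of all genes, and had 1 at an unadjusted p under 0.05, against 19.6%. The count over all genes fell to 905, 819 and 764 without non-radiated library 1, non-radiated library 2 and radiated library 1, and the count of members stayed at 0 in those 3 fits. Without non-radiated library 3 it was 1, again Bax. The members' median log2 fold change was 0.07, against 0.00 over all genes tested, and the median size of their change regardless of sign was 0.10, against 0.13 over all genes.

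The libraries held 34034251 to 48708383 gene counts. In non-radiated library 2 a single row, AY036118, took 32.9% of the counts (95% Wilson interval 32.9% to 33.0%, for counting error only), and its share in the other 5 libraries was 0.321% to 5.61%. Bone markers were present in every library, with a summed level of 8178 to 12431 CPM for 8 genes in non-radiated and 6052 to 7827 CPM in radiated femur. CPM is the usual count of a gene relative to its library's depth, with library sizes scaled by edgeR's TMM method. Of these 8 bone markers 2 were called lower, Col1a1 and Runx2. In all, 7 had a negative log2 fold change and an unadjusted p under 0.05, and the median log2 fold change was -0.49. RNA of other cell types' markers also moved with the groups. All 10 megakaryocyte markers fell, from a summed 1251 to 1302 CPM to 517 to 570 CPM, and all 10 B cell markers rose, from 562 to 630 CPM to 901 to 1128 CPM. Of 8 macrophage markers 6 were called higher, with sums of 907 to 999 CPM and 1155 to 1340 CPM. Of 8 adipocyte markers 7 were called higher, with sums of 119 to 129 CPM and 217 to 279 CPM. In both lists all 8 had a positive log2 fold change and an unadjusted p under 0.05. Muscle was trimmed off before extraction, and skeletal muscle markers, 0 of 10 called and 10 at an unadjusted p under 0.05, summed to 162 to 325 CPM and 185 to 2292 CPM. T cell markers, with 2 of 8 called higher, summed to 49.0 to 53.8 CPM and 62.9 to 74.0 CPM. All 8 had positive log2 fold changes, 5 of them at an unadjusted p under 0.05, with a median of 0.44. Neutrophil markers, with 1 of 10 called lower, summed to 14895 to 19097 CPM and 11816 to 13826 CPM. All 10 had negative log2 fold changes, 9 of them at an unadjusted p under 0.05, with a median of -0.37. Erythroid markers, with 0 of 8 called, summed to 6558 to 7304 CPM and 6217 to 7004 CPM. Of these 8, 7 had negative log2 fold changes and 2 an unadjusted p under 0.05, with a median of -0.14. No marker in these lists was at 0 in every library. The part of these shifts in the members' values was not tested, and in bulk RNA fewer cells of a type and less RNA per cell cannot be told apart. Nothing in the labels says that the libraries of a group came from separate animals, so the p-values measure the spread between these samples.

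The 250 bases before the transcription start are shown for 3 genes, because Bax was the member with the strongest evidence of a difference, Bbc3 is a second p53 target of the family, and Cdkn1a (p21, a cell cycle inhibitor) is the p53 target against which both are set below. The sequences are from RefSeq (GRCm38.p6), 5′ to 3′ on the gene's strand, and capitals mark each match to the p53 consensus decamer, the unit that occurs in tandem in p53 response elements.
Bax, chr7:45466899-45467148, minus strand: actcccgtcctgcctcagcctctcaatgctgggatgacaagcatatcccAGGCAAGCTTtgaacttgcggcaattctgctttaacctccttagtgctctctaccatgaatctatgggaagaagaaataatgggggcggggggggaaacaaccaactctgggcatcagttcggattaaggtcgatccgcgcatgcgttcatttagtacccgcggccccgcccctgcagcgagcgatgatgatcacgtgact
Bbc3, chr7:16309333-16309582, plus strand: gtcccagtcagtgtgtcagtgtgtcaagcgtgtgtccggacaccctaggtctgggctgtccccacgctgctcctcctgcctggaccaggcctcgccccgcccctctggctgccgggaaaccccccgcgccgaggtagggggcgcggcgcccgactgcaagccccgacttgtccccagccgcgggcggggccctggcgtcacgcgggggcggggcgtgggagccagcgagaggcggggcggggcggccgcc
Cdkn1a, chr17:29090729-29090978, plus strand: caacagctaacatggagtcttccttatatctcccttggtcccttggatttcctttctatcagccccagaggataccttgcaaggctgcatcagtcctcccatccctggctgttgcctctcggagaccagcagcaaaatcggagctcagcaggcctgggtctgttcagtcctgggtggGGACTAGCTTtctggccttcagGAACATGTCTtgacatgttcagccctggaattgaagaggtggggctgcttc

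The decamer reads the same on both strands, and 7.13% of the 32841 promoter windows of this length held at least 1 match. RefSeq windows were matched for 9 of the 10 members, all but Pmaip1. Bbc3, Bcl2l1, Bad and Bcl2l11 had windows at more than 1 start, and the Bbc3 window shown is the first of its own. Among all these windows that of Bax was the only one with a match, which began 201 bases before the start. With 7.13% of all windows matching, 1 match among the members' windows is no result about Bax. The Cdkn1a window shown held 2 matches, which began 73 and 51 bases before its start, and the window at its second listed start held 0. Among other p53 targets the windows of Eda2r and Phlda3 held 0 matches, those of Ccng1 and Mdm2 held 1 each, and the windows at the pair of Aen starts held 0 and 1. A match is a run of letters and not a binding site, and the absence of one in 250 bases says nothing of p53 elsewhere at a gene.

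Set side by side per kb of exon, the members kept nearly the same order in both groups. This order depends on the annotated exonic length of each gene, such as 869 bases for Bax and 2407 for Bak1. In CPM, without that length, Bax (means 17.5 in non-radiated and 22.7 in radiated femur) was below Bak1 (35.8 and 37.4). Mcl1, the short-lived guardian, was highest, at 97.0 ± 4.05 CPM per kb in non-radiated and 96.6 ± 5.65 in radiated femur (mean ± SD, n = 3 each). Bcl2l1 followed at 54.0 ± 1.75 and 52.98 ± 1.87 CPM per kb. The effectors came next, with Bax at 20.2 ± 3.31 and 26.2 ± 1.99 and Bak1 at 14.9 ± 1.40 and 15.5 ± 0.277 CPM per kb. So the messages of 2 guardians stood above those of both effectors in every library. Bid, at 10.7 and 9.80 CPM per kb, and Bcl2l11, at 6.32 and 6.83, were the highest BH3-only members. Bcl2 (4.44 and 4.44 CPM per kb) and Bad (4.23 and 4.49) were the one neighbouring pair whose library ranges overlapped, and they changed places between the groups. Pmaip1 (2.67 and 3.17 CPM per kb) and Bbc3 (1.20 and 1.44) were lowest. Over all 6 libraries the mean of Mcl1 per kb was 73.5 times that of Bbc3.

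**Figure D1:**
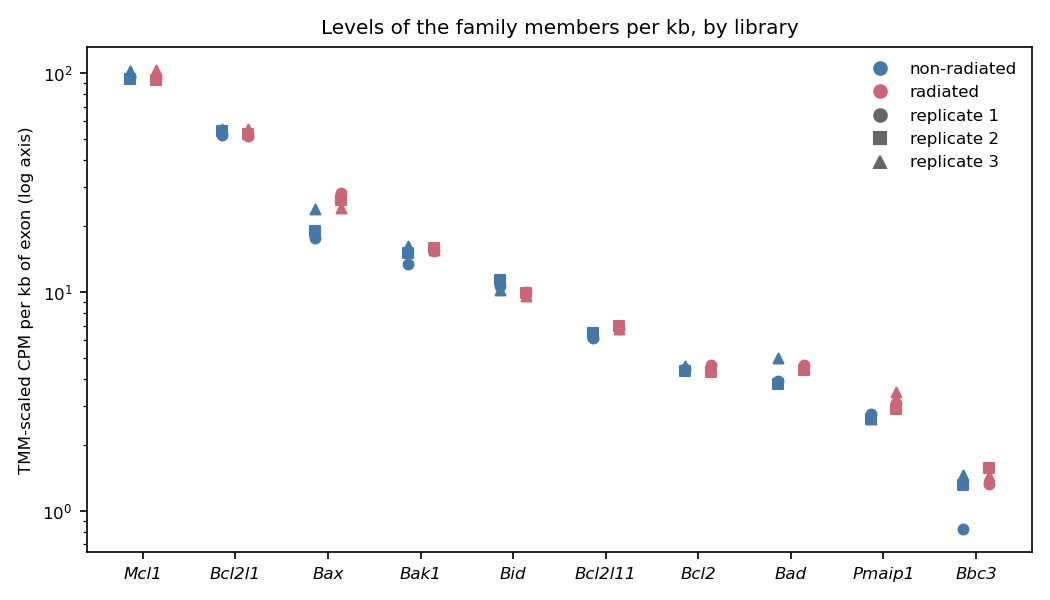
TMM-scaled CPM per kb of exon (log axis) of the 10 members, 1 symbol per library, non-radiated in blue and radiated in red, with the shape giving the replicate number. Mcl1 and Bcl2l1 lie above both effectors in all 6 libraries, and only the ranges of Bcl2 and Bad overlap between neighbours.

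The guardians had nearly equal levels in both groups. Bcl2, which protects lymphocytes and other long-lived cells (ENSMUSG00000057329, protein coding, chromosome 1, 106538178 to 106714274, build mm10), was at 40.4, 39.7 and 41.9 CPM in non-radiated libraries 1, 2 and 3 and at 42.5, 39.5 and 40.04 CPM in radiated libraries 1, 2 and 3. The groups overlapped, and the lowest and the highest of the 6 values were both from radiated femur. The fitted fold change was 1.0003 (95% interval 0.909 to 1.10), with an edgeR adjusted p of 0.998. This held while the B cell markers rose by a median of 0.76 on the log2 scale. Bcl2 overlaps 3 other genes in the table, the highest of them at 83 to 190 counts against 994 to 2108 for Bcl2.

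Bcl2l1, which encodes Bcl-xL (ENSMUSG00000007659, chromosome 2, 152780668 to 152831728), was at 239, 249.9 and 255 CPM in the non-radiated libraries and at 236, 240.1 and 253 CPM in the radiated ones. The groups overlapped over most of their range. Its fold change was 0.981 (95% interval 0.900 to 1.07, edgeR adjusted p = 0.829), beside a median log2 fold change of -1.41 for the megakaryocyte markers and -0.14 for the erythroid markers. Mcl1 (ENSMUSG00000038612, chromosome 3, 95658721 to 95663176) was at 333, 327 and 354 CPM and at 329, 322 and 359 CPM. Here, too, the groups overlapped, and in both of them library 3 was highest. The Mcl1 fold change was 0.996 (95% interval 0.901 to 1.10, edgeR adjusted p = 0.972), beside a median log2 fold change of -0.37 for the neutrophil markers. The intervals of the 3 guardians together spanned fold changes of 0.900 to 1.10, and the coefficient of variation between replicates was 2.77% to 5.85%.

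Bax, the effector that moves from the cytosol into the mitochondrial membrane (ENSMUSG00000003873, chromosome 7, 45461695 to 45466898), had the largest fold change of the 10 members. It was at 15.4, 16.4 and 20.8 CPM in non-radiated libraries 1, 2 and 3 and at 24.4, 22.8 and 21.0 CPM in radiated libraries 1, 2 and 3. The groups did not overlap, but the gap between them was small, with non-radiated library 3 at 20.79 CPM and radiated library 3 at 20.97 CPM. The fitted fold change was 1.29 (95% interval 1.08 to 1.56), log2 fold change 0.37, SE 0.12, with an unadjusted p of 0.0110 and an edgeR adjusted p of 0.0934. Between libraries of the same number the log2 difference was 0.67, 0.48 and 0.01 for numbers 1, 2 and 3. Without non-radiated library 3, the highest of its group, Bax was called with a log2 difference of 0.51 (edgeR adjusted p = 0.0146). It was called also by DESeq2's Wald test (adjusted p = 0.0263) and with no filter on low counts (edgeR adjusted p = 0.0357), and over all 14 settings its adjusted p ran from 0.0146 to 0.280. Its log2 fold change was positive in each of them.

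Bak1, the second effector, resides in the mitochondrial membrane (ENSMUSG00000057789, chromosome 17, 27019810 to 27029009). It was at 32.3, 36.2 and 39.0 CPM in the non-radiated and 36.7, 38.1 and 37.3 CPM in the radiated libraries. The radiated values fell inside the non-radiated range. Its fold change was 1.04 (95% interval 0.924 to 1.18, edgeR adjusted p = 0.723). The whole of Bak1 overlaps Ggnbp1 on the opposite strand (617 to 1322 counts). The strand setting of the counting is not given, so reads of such partners cannot be told apart.

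**Figure D2:**
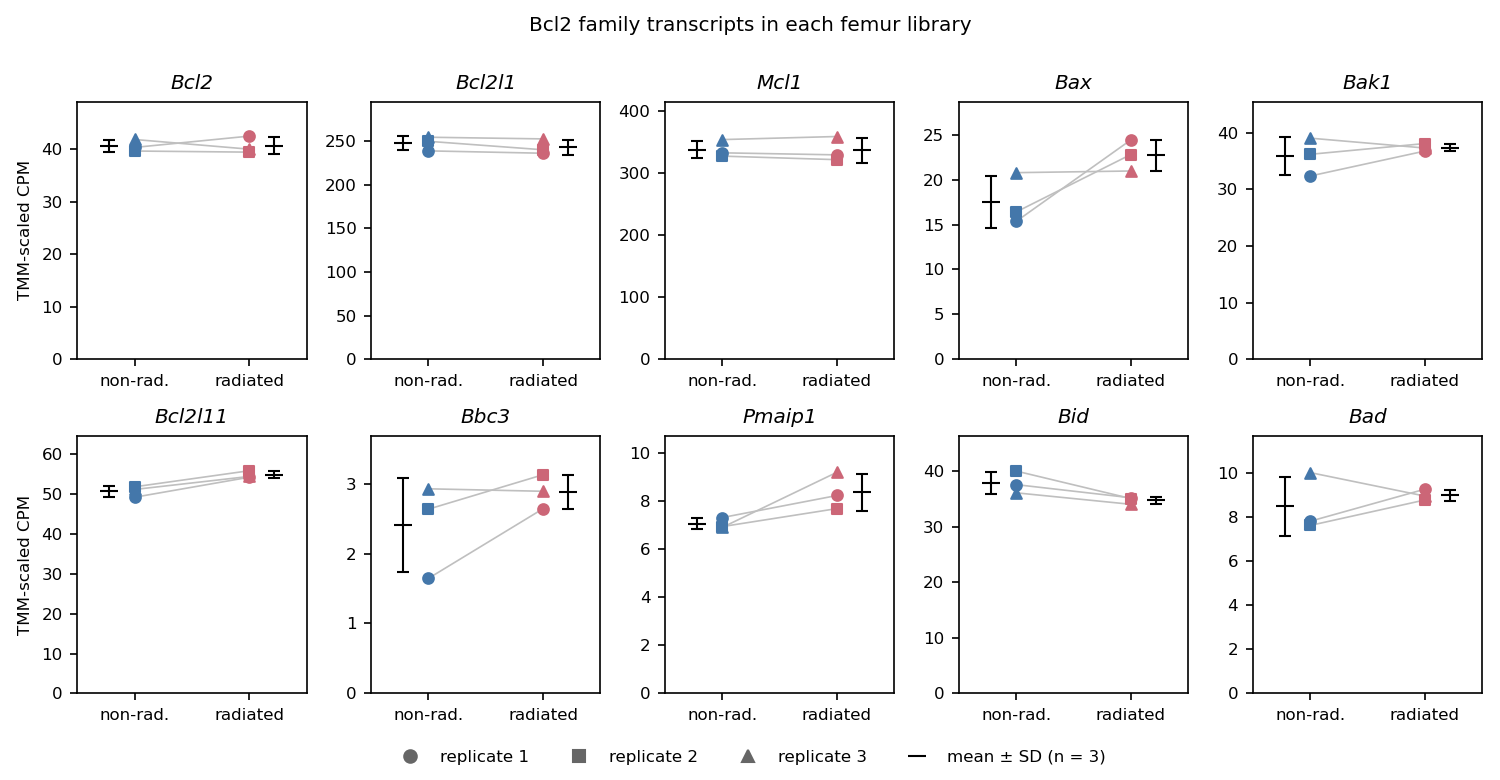
TMM-scaled CPM of each member in the 3 non-radiated (blue) and 3 radiated (red) libraries, with grey lines joining libraries of the same number and black bars giving mean ± SD (n = 3), each panel starting at 0. The radiated Bax value is clearly the higher for numbers 1 and 2 and higher by 0.01 on the log2 scale for number 3, and the 3 guardians in the first panels are nearly level.

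Of the 5 BH3-only members, 4 had positive log2 fold changes and 1 a negative one, and none was called. Pmaip1, which encodes Noxa, a partner of Mcl1 (ENSMUSG00000024521), was at 7.32, 6.95 and 6.91 CPM in the non-radiated libraries and at 8.24, 7.70 and 9.21 CPM in the radiated ones. All 3 radiated values were above all 3 non-radiated ones, and the difference was positive for each number. Its fold change was 1.19 (95% interval 0.9998 to 1.41), with an unadjusted p of 0.0502 and an edgeR adjusted p of 0.233. Bcl2l11, which encodes Bim (ENSMUSG00000027381, chromosome 2, 128126038 to 128162547), was at 49.2, 51.8 and 51.2 CPM and at 54.2, 55.9 and 54.4 CPM. Its groups did not overlap either, at a coefficient of variation of only 2.68% in non-radiated and 1.62% in radiated femur. The Bcl2l11 fold change was 1.08 (95% interval 0.995 to 1.18, edgeR adjusted p = 0.263).

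Bbc3, which encodes Puma (ENSMUSG00000002083, chromosome 7, 16309616 to 16318205), was the least abundant member, with 60, 66 and 124 counts in the non-radiated and 100, 167 and 129 in the radiated libraries. These counts correspond to 1.65, 2.64 and 2.93 CPM and to 2.64, 3.13 and 2.89 CPM. The groups overlapped, and non-radiated library 1 lay below the other 5. The fold change of 1.20 had a wide interval (95% interval 0.861 to 1.68, edgeR adjusted p = 0.533), and without non-radiated library 1 the log2 fold change of Bbc3 went from 0.27 to 0.05. A difference in Bbc3 beyond the spread between these libraries was thus not detected, and a rise of up to 1.68-fold was inside the interval.

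Bid (ENSMUSG00000004446, chromosome 6, 120891930 to 120916853) links death receptors to mitochondria once caspase-8 has cut it. Of the members, only Bid had every radiated value below every non-radiated one. It was at 37.6, 40.05 and 36.1 CPM in the non-radiated and 35.2, 35.1 and 34.1 CPM in the radiated libraries. The groups did not overlap, and the fold change was 0.918 (95% interval 0.831 to 1.02, edgeR adjusted p = 0.315). Bid overlaps Bcl2l13, another family member on the opposite strand (2811 to 6071 counts), over 913 bases. Bad, which survival kinases keep bound in the cytosol (ENSMUSG00000024959, chromosome 19, 6941861 to 6951898), was at 7.82, 7.63 and 10.03 CPM and at 9.27, 8.78 and 8.96 CPM. The radiated values lay within the non-radiated range, with non-radiated library 3 highest, and the fold change was 1.06 (95% interval 0.870 to 1.29, edgeR adjusted p = 0.775). Bad overlaps Gpr137 on the opposite strand (255 to 594 counts) over 590 bases.

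For 4 of the 10 members every value of one group lay beyond the other group, against 25.9% of all genes tested. There were 3 higher, against 14.4%, and 1 lower, against 11.5%. Bax, Bcl2l11 and Pmaip1 were the 3 higher ones and Bid the lower one, and their fold changes were 1.29, 1.08, 1.19 and 0.918. The members also differed in how much they varied between non-radiated replicates. The coefficient of variation was 2.68% to 5.22% for Bcl2, Bcl2l1, Mcl1, Bcl2l11, Pmaip1 and Bid, and 9.37%, 15.7%, 16.4% and 27.9% for Bak1, Bad, Bax and Bbc3. For these last 4 non-radiated library 3 was the highest of its group.

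Ratios of counts within a library do not depend on the scaling between libraries, and 5 were computed. They were not scaled for exonic length, which is 869 bases for Bax and 9157 for Bcl2. So their change between groups can be read, but not their sign or level. The log2 ratio of Bax to Bcl2 was -1.39, -1.27 and -1.01 in the non-radiated libraries and -0.80, -0.79 and -0.93 in the radiated ones. Every radiated value was above every non-radiated one, by 0.39 between the group means, a ratio 1.31 times as high (two-sided exact permutation p = 0.1, the smallest that 20 labelings allow, 0.25 adjusted over the 5 ratios). The ratio of Bax to Bcl2l1 was also higher without overlap, by 0.41 on the log2 scale (exact permutation p = 0.1, adjusted 0.25). The ratio of Bax to Mcl1 was higher by 0.39, with radiated library 3 at -4.10 just under non-radiated library 3 at -4.09 (exact permutation p = 0.2, adjusted 0.333). For number 3 the 3 Bax ratios differed by 0.08, 0.02 and -0.01, against 0.48 to 0.69 for numbers 1 and 2. Between guardians the ratios moved little, by -0.02 for Bcl2l1 to Mcl1 (exact permutation p = 0.5, adjusted 0.625) and by 0.01 for Bcl2 to Mcl1 (exact permutation p = 0.8, adjusted 0.8). With 3 libraries against 3 this permutation test cannot go below 0.1. With libraries of the same number as pairs, the exact sign-flip permutation p was 0.25 for Bax to Bcl2, Bax to Bcl2l1 and Bcl2l1 to Mcl1, the smallest that 3 pairs allow, 0.5 for Bax to Mcl1 and 0.75 for Bcl2 to Mcl1.

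**Figure D3:**
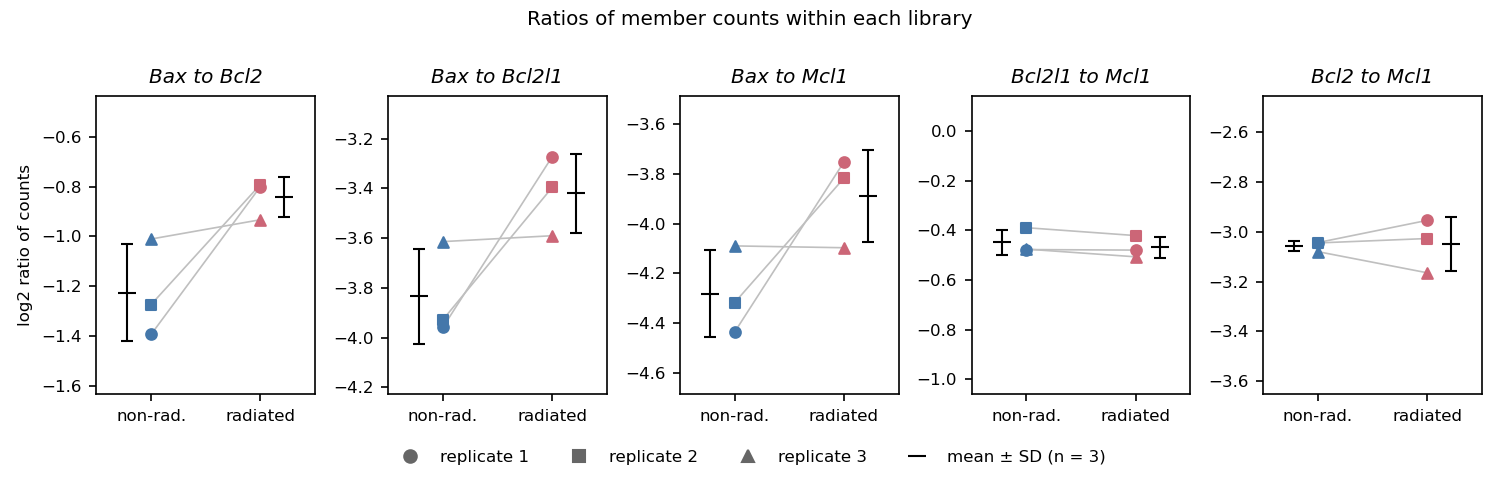
Log2 ratio of the counts of 2 members within each library, for 5 ratios, with grey lines joining libraries of the same number and black bars giving mean ± SD (n = 3). All axes span the same range, so the Bax ratios can be seen to separate for numbers 1 and 2 but hardly for number 3, while the ratios between guardians stay level.

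Other genes of the pathway were read from 5 lists of 73 distinct genes, of which 70 were tested and 10 called, all 10 higher. Over all genes tested 7.8% were called, 4.56% higher and 3.24% lower. Of these 10, 7 were in the list of p53 targets outside the family. All 5 lists were drawn up with earlier results of these data known. Of the rest of the Bcl2 family, 12 of 14 genes were tested, and 0 were called by edgeR, against 7.8% of all genes. At an unadjusted p under 0.05 there were 3 of the 12, against 21.5% of all genes. Their log2 fold changes ran from -0.81 to 0.62, with a median of 0.19, and limma-voom and DESeq2's Wald test likewise called none. With the replicate number as a block 1 gene was called, Bmf, a BH3-only gene of the list (edgeR adjusted p = 0.0455, without the block 0.129). Of the caspase cascade, which acts once cytochrome c is released, 1 of 15 genes was called, against 7.8% of all genes, and the list's median log2 fold change was -0.08. That gene was Birc3, an inhibitor of apoptosis, at 58.7, 61.3 and 58.1 CPM in the non-radiated and 74.9, 67.6 and 69.3 CPM in the radiated libraries. Birc3 rose 1.19-fold (95% interval 1.087 to 1.302, edgeR adjusted p = 0.0307). The Birc3 call did not hold in 7 of 13 alternatives (adjusted p 0.0139 to 0.295). These included the block (0.0522) and leaving out any one library other than radiated library 2.

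The core of the apoptosome was not called. Apaf1, its scaffold, had a log2 difference of -0.08 (95% interval -0.21 to 0.06, edgeR adjusted p = 0.516), and Casp9, the caspase it activates, one of 0.04 (95% interval -0.12 to 0.19, edgeR adjusted p = 0.813).

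In the death receptor arm, which works through Fadd and caspase-8 and reaches mitochondria through Bid, 1 of 9 genes was called, 11.1% against 7.8% of all genes, with a list median of -0.01. Tnfrsf10b, the mouse receptor for the death ligand Trail and a p53 target, was at 2.22, 1.96 and 2.22 CPM in the non-radiated and 4.41, 4.33 and 4.66 CPM in the radiated libraries. The groups lay far apart, at a fold change of 2.09 (95% interval 1.69 to 2.57, edgeR adjusted p = 0.00180), and the call was made in all 14 settings. The other 8 genes of this arm had log2 fold changes of -0.15 to 0.67.

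Of 14 p53 targets outside the family, 7 were called, all higher, against 7.8% of all genes, with a median log2 fold change of 0.25. The log2 fold changes ran from -0.50 to 3.46, with 11 positive and 3 negative. The list was drawn up with earlier results of these data known, so its count is no independent evidence of its direction. Cdkn1a was at 8.80, 7.43 and 7.93 CPM in the non-radiated and 33.1, 30.0 and 31.2 CPM in the radiated libraries, a fold change of 3.89 (95% interval 3.39 to 4.46, edgeR adjusted p = 5.94e-06). Its lowest radiated library stood far above its highest non-radiated one, which was not so for any member of the Bcl2 family. Eda2r, a receptor of the tumour necrosis factor family, rose 11.0-fold, Phlda3, an inhibitor of Akt signalling, 4.98-fold and Zmat3, an RNA-binding protein, 2.12-fold (edgeR adjusted p = 7.99e-06, 1.43e-05 and 1.68e-05). Ccng1, cyclin G1, was at 67.5, 65.9 and 64.8 CPM in the non-radiated and 91.7, 99.1 and 91.9 CPM in the radiated libraries. Its rise of 1.43-fold (95% interval 1.31 to 1.55, edgeR adjusted p = 0.000602) stands beside 1.29-fold for Bax, and the SE on the log2 scale was 0.05 for Ccng1 and 0.12 for Bax.

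Aen, a nuclease gene, rose 1.26-fold (edgeR adjusted p = 0.0479), and that call did not hold in 7 of 13 alternatives (adjusted p 0.0180 to 0.217). These included leaving out any one library other than non-radiated library 3. Mdm2, the ligase that degrades p53, was at 84.4, 83.0 and 84.2 CPM and at 92.6, 87.0 and 101 CPM. The groups did not overlap, and the log2 fold change of 0.16 was not called (edgeR adjusted p = 0.176).

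**Figure D4:**
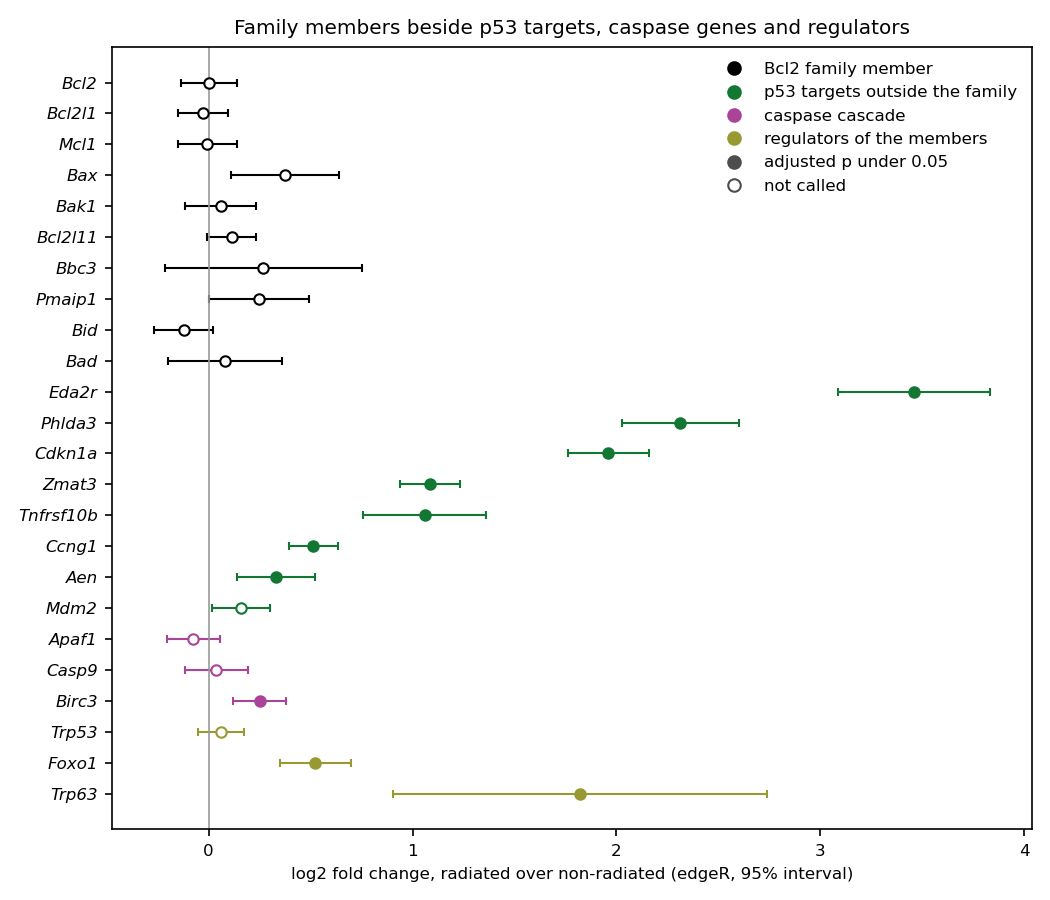
Log2 fold change of radiated over non-radiated femur with its 95% interval from edgeR (horizontal axis) for the 10 members (black), p53 targets outside the family (green), caspase genes (purple) and regulators (olive), filled where the adjusted p is under 0.05. All 10 members are open symbols, with Bax the only one whose interval lies clear of 0, while Cdkn1a, Phlda3 and Eda2r stand at 1.96 or above.

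Among 24 regulators of the members, 23 were tested and 2 called, both higher, which is 8.7% against 7.8% of all genes, with a median log2 fold change of 0.01. Foxo1, a transcription factor of the family whose members can induce Bcl2l11 and Bbc3, was at 54.8, 48.1 and 50.7 CPM in the non-radiated and 73.7, 67.1 and 80.0 CPM in the radiated libraries. It rose 1.44-fold (95% interval 1.27 to 1.62, edgeR adjusted p = 0.00383), was called in all 14 settings, and overlaps a transcript of unconfirmed coding status on its own strand (269 to 1007 counts). Trp63, a p53 relative, rose 3.54-fold (95% interval 1.87 to 6.68, edgeR adjusted p = 0.0268) from only 5, 2 and 11 counts in the non-radiated and 19, 31 and 33 in the radiated libraries. The Trp63 call, too, failed when any one library other than non-radiated library 3 was left out (adjusted p 0.00153 to 0.104 over the settings). Trp53 itself, which is controlled mainly at the protein level, was at 58.2, 58.4 and 59.7 CPM and at 59.9, 62.8 and 61.0 CPM. All 3 radiated values were above the non-radiated ones, by little, and it was not called (log2 fold change 0.06, 95% interval -0.05 to 0.17, edgeR adjusted p = 0.560).

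**Figure D5:**
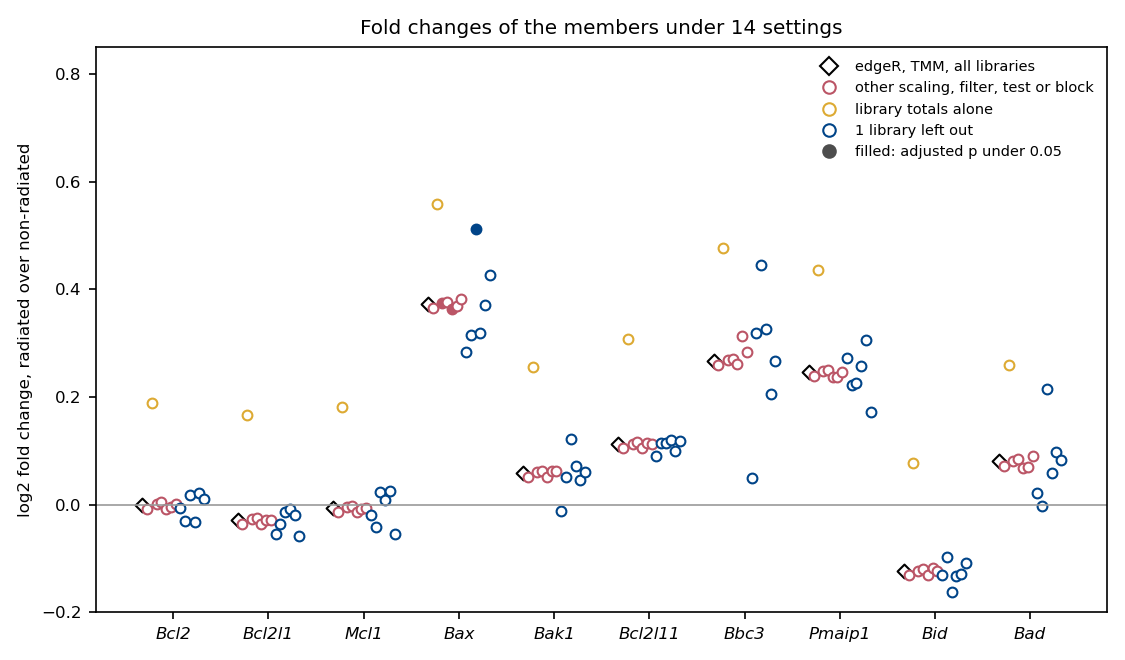
Log2 fold change of each member (vertical axis) under 14 settings, as the black diamond for edgeR with TMM on all libraries, red circles for other scalings, filters, tests or the block, yellow for library totals alone and blue with 1 library left out, filled where the adjusted p is under 0.05. Only Bax has filled symbols, in 3 settings, and library totals alone lie above the other scalings and tests for every member.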

How the data were processed

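RNA-seq libraries from 3 radiated and 3 non-radiated femurs were grouped by their titles. The table deposited by the authors gives raw gene counts and RPKM per library, per the file headers. STAR 2.5.2b, Subread featureCounts, bcl2fastq and build mm10 are named in the submitters' processing notes, and the library kit was stranded, per the labels. The annotation and the strand and multi-mapping settings are not given in the sources used here. Deposited RPKM equals the count over gene length plus 1 base and over a library constant 5.55 to 6.91 times the sum of counts, so RPKM was not used. Levels per kb were computed from counts and the table's exonic length.

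Gene-wise tests on the counts used edgeR 4.0.16 under R 4.3.3 (filterByExpr, minimum count 10, minimum total 15, TMM, glmQLFit and glmQLFTest, group only), fitted on 18757 genes, with Benjamini-Hochberg adjustment over all of them and a threshold of 0.05. SEs were taken as the absolute log2 fold change over the square root of F, and 95% intervals use the test's degrees of freedom. Fold changes are relative to the bulk of genes. Pathway lists were described by counts and medians with no set test. The fit was also run on counts simulated with the same dispersion for every gene, as a check of the code only. Alternatives were DESeq2 1.42.0 (size factors, Wald test), library totals alone, no filter, a mean of at least 1 CPM, limma-voom (limma 3.58.1), the replicate number as a block, and leaving out each library.

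The members and lists were chosen with earlier results of these data known. Named were all members, every list gene called, and Cdkn1a, Trp53, Mdm2, Casp9 and Apaf1, with 1 further gene of the rule not reported here; Bmf, Bik and Bcl2a1d were chosen after their values were seen. The rule's genes of like profile were to be named only for called members, and there was none. Of 166 list entries 1 was found by its gene ID. The deviations of same-numbered libraries from their group means correlated across genes at 0.186, 0.349 and 0.204, and those of different numbers at -0.221 to 0.0203. For this reason same-numbered libraries were treated as pairs in an alternative. Deviations from a group mean cancel out within the group, so the values for different numbers are not separate evidence. No label ties a number to 1 mouse, and this check cannot show it. Replicates of a group differed beyond sampling noise (chi-square per degree of freedom 17.9 to 608), and each was counted once. The largest values, 521 and 608, were for pairs with non-radiated library 2, and the AY036118 row entered them. This measure does not show that replicates came from separate animals. Promoters came from RefSeq (GRCm38.p6).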

Additional observations from a re-analysis of the deposited data

How the results depend on the processing

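Of 130 alternative fits of the members' fold changes, 113 kept their direction and their side of the threshold, 14 changed sign and 3 brought a call, each of them for Bax. The number of members called was 1 with no filter and with DESeq2's Wald test, and 0 to 1 with a library left out. Bax was called with no filter (log2 fold change 0.37) and by DESeq2's Wald test (0.36), and with a library left out it ran from 0.28 to 0.51. Bcl2 was at -0.0078 with DESeq2 size factors, -0.0088 by DESeq2's Wald test and -0.0045 with limma-voom. With a library left out, Bcl2 ran from -0.033 to 0.021, Mcl1 from -0.055 to 0.026, Bak1 from -0.011 to 0.12, Bad from -0.0021 to 0.22 and Casp9 from -0.0078 to 0.077. Library totals alone, which let AY036118 enter the scaling, moved the median over all genes to 0.19 on the log2 scale and took Bcl2l1 to 0.17, Mcl1 to 0.18, Bid to 0.077 and Apaf1 to 0.12. Under that scaling 146 genes were lower and 85.4% of called genes higher, against 58.5% with TMM. With no filter 1294 genes were higher. With a library left out, genes called ran from 764 to 1376, those higher from 433 to 917 and those lower from 328 to 602. The log2 ratio of Bcl2l1 to Mcl1 ran from -0.046 to 0.0074 and that of Bcl2 to Mcl1 from -0.040 to 0.066. Of the caspase list, 0 genes were higher under library totals alone and with the replicate block, 0 to 1 with a library left out, and 0 to 1 were lower with a library left out. Of the regulators, 1 was higher with a mean of at least 1 CPM, where Trp63 was not tested, 1 by DESeq2's Wald test, which gave Trp63 no adjusted p, and 1 to 2 with a library left out. With the replicate block 1670 genes and 0 members were called (Bax log2 fold change 0.38, edgeR adjusted p = 0.102), 1 gene of the other Bcl2 family was higher, and Bmf (gained) and Birc3 (lost) were the calls among the named genes that it changed. The cause of these changes was not tested. Among the genes named as called, Trp63 rested on the fewest counts, 2 to 33 per library.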

Other observations

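In the rest of the Bcl2 family 3 of the 12 genes tested had an unadjusted p under 0.05, against 21.5% of all genes. None of them was called. Bik, a BH3-only gene, had 33, 21 and 43 counts in the non-radiated and 15, 27 and 30 in the radiated libraries, a log2 fold change of -0.81 (95% interval -1.40 to -0.22, edgeR adjusted p = 0.103). Bmf, a BH3-only gene tied to the cytoskeleton, was at 28.8, 23.9 and 28.4 CPM and at 32.7, 29.7 and 38.2 CPM, a log2 fold change of 0.31 (95% interval 0.07 to 0.55, edgeR adjusted p = 0.129). Bcl2a1d, a guardian of blood cells with near-identical paralogs whose reads could be split between them, had 32, 19 and 37 and then 58, 69 and 48 counts, a log2 fold change of 0.62 (95% interval 0.13 to 1.11, edgeR adjusted p = 0.126). These genes were chosen after their values were seen.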
